A study of Mus musculus with 4 samples.

Results

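The core circadian clock genes were followed in bulk RNA-seq counts of mouse skeletal stem cells, the self-renewing cells that give rise to cartilage, bone and marrow stroma. The set holds 10 genes chosen by symbol: the activators Arntl (also named Bmal1) and Clock, the repressors Per1, Per2, Per3, Cry1, Cry2, Nr1d1 and Nr1d2, and the output gene Dbp. They are 10 of the 55487 gene rows in the table, each matched to 1 Ensembl gene ID through the GENCODE M21 annotation of GRCm38. All 10 passed the filter on low counts, which left 17120 genes to test. The cells came from wild-type mice that had a sham operation (2 libraries) or an ovariectomy (2 libraries), and every library carries the time 8 weeks, which the labels define neither as an age nor as a time after surgery. Metaphyses of long bones were taken apart with collagenase type 2, and the cells were stained for CD51 and CD200, for CD90, 6C3 and CD105, and for CD45, Ter119 and Tie2, and used straight after flow sorting. Loss of ovarian oestrogen is a standard way to provoke bone loss in mice, and the series title concerns the course of osteoporosis. The labels give no strain, no number or pooling of animals and no hour of collection. The p-values therefore measure only the spread between these libraries, which may be technical.

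As background, nearly every mammalian cell runs a clock of interlocked feedback loops with a period of about a day. The proteins of Arntl and Clock pair up and switch on genes that carry E-box motifs, among them the Per, Cry and Nr1d genes. PER and CRY proteins then block that pair, while the nuclear receptors NR1D1 and NR1D2 (REV-ERB alpha and beta) compete with ROR receptors at RORE motifs and hold Arntl down. DBP is a transcription factor that acts on D-box motifs, and its gene is a direct E-box target with one of the widest daily swings in many tissues. In most tissues transcripts of Arntl peak when those of Nr1d1 and Dbp are low, and the level of any clock transcript depends on the hour at which a tissue is taken.

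The libraries held between 18291436 and 23721078 counts, so that 1 count was worth between 0.0423 and 0.0519 CPM (counts scaled to a common library size by TMM, the unit of all levels given here unless another is named). The lowest count of a clock gene in any library was 187, for Dbp. Of the antigens stained for the sort, Itgav (CD51) was at 67.3 to 72.0 CPM over the 4 libraries. Cd200 was called lower, at 237 and 305 CPM in the sham pair against 173 and 155 CPM after ovariectomy (edgeR adjusted p = 0.0462). Eng (CD105) was at 21.6 and 52.1 against 75.2 and 83.1 CPM, and was not called. Tek (Tie2) was at 0.223 and 5.52 against 7.53 and 9.76 CPM, and Ptprc (CD45) at 9.55 and 5.25 against 3.55 and 6.44 CPM. Enpep (6C3) was at 1.52 and 1.91 against 4.40 and 3.64 CPM, and was not called. Thy1 (CD90) had 3 to 5 counts a library. The cell type markers moved between the groups. Of 8 chondrocyte markers 7 were called lower after ovariectomy and 0 higher, with summed levels of 95763 and 103584 CPM in the sham pair against 54963 and 60455 CPM after ovariectomy. Of 7 osteoblast markers 4 were called lower, with sums of 83767 and 112857 against 68277 and 74384 CPM. Most of this sum was Col1a1, which was not called (62492 and 88749 against 57192 and 61075 CPM). Of 6 fibroblast markers 5 were called higher (4128 and 6522 against 6000 and 6694 CPM), as were 3 of 6 pericyte and smooth muscle markers (57.2 and 99.6 against 395 and 461 CPM). Most of the fibroblast sum was Dcn, the marker not called (4033 and 6380 against 5536 and 6181 CPM). The 5 called fibroblast markers were between 2.96-fold (Pdgfra) and 10.6-fold (Pi16) higher. Of 7 erythroid markers, 5 could be tested and 4 were called higher (2.18 and 3.39 against 62.1 and 112 CPM), with Rhag and Hemgn at 0 counts in both sham libraries. The 4 called, Car1, Klf1, Epor and Rhag, had at most 16 counts in a sham library. They passed the filter through the ovariectomy libraries, so they could only be called higher. Alas2, the other tested marker, had 59 and 32 counts in the sham pair against 61 and 9 after ovariectomy and was not called. None of 6 endothelial markers (8.97 and 35.1 against 37.0 and 57.9 CPM) and none of 6 leukocyte markers (51.2 and 54.5 against 64.5 and 111 CPM) was called by edgeR, with 1 and 2 of them at an unadjusted p under 0.05. Cdh5 and Emcn had 0 counts in sham 1. The part of these shifts in the clock results was not tested. In bulk RNA, fewer cells of a type and less RNA per cell cannot be told apart.

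The promoters show which clock motifs lie beside the start sites of the genes described here. RefSeq windows on GRCm38.p6, from 250 bases before to 50 after a transcript start, were found for 9 of the 10 genes. Of these, Per1 and Cry1 held an E-box (CACGTG, which 7.15% of all 32851 windows of this length hold), and Cry1, Cry2 and Nr1d1 held the variant CACGTT (4.68% of windows). Per1 and Per3 held a D-box (TTATGNAA, 3.38% of windows), Arntl a RORE (NTAGGTCA, 2.59%), and none a CRE, the cAMP response element (TGACGTCA, 1.79%). Counted by gene over all its windows, 8.09% of genes held the E-box, 5.44% the variant, 3.99% the D-box, 2.95% the RORE and 2.03% the CRE. Both strands were searched, and a match describes letters, not binding. The windows below are those of Dbp, Nr1d1 and Arntl, and of Per1 and Cry1, the 2 clock genes with CACGTG. Ciart, which codes for a repressor of the ARNTL and CLOCK pair, is added for its 3 E-boxes. Not every window with a match is drawn. They lie at chr7:45704997-45705296 (plus strand, Dbp), chr11:98775328-98775627 (minus, Nr1d1), chr7:113207261-113207560 (plus, Arntl), chr11:69098699-69098998 (plus, Per1), chr10:85185005-85185304 (minus, Cry1) and chr3:95882179-95882478 (minus, Ciart). Each reads 5′ to 3′ along its gene, with the motif matches in capitals.
Dbp: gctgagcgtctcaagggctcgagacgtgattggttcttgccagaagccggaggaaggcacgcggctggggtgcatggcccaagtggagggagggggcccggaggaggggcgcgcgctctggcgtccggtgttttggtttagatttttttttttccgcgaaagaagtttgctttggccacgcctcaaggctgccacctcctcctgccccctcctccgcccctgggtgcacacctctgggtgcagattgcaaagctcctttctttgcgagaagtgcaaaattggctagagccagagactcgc
Nr1d1: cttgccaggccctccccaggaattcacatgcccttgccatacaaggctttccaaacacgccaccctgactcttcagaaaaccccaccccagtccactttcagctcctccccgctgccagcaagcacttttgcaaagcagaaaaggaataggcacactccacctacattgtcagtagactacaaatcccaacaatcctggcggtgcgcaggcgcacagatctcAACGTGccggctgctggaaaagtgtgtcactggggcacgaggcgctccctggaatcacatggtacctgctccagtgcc
Arntl: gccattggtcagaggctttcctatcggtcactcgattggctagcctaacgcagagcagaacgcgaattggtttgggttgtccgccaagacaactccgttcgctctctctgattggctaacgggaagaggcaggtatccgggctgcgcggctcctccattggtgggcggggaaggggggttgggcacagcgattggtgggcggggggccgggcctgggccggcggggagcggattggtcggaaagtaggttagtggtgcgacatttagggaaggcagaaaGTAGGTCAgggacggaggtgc
Per1: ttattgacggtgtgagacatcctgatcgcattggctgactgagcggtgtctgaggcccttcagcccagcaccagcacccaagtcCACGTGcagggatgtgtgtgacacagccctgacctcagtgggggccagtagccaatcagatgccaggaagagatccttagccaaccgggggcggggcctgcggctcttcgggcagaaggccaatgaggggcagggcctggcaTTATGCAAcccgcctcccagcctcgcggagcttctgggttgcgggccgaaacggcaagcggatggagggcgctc
Cry1: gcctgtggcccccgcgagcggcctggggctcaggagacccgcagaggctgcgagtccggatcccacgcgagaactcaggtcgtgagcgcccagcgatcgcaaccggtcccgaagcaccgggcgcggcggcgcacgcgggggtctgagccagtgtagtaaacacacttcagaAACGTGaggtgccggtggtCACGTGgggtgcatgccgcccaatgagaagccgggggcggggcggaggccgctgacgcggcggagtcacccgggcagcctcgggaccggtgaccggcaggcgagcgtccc
Ciart: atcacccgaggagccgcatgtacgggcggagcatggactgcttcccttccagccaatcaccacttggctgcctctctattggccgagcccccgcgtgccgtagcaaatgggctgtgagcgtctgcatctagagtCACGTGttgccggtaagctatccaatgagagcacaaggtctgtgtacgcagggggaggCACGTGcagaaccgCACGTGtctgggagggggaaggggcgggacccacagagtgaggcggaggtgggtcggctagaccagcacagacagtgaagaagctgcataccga

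With positions counted from the start site and negative before it, Nr1d1 shows the variant E-box, read on the other strand, from position -28. Bases just after this Nr1d1 start were not found in its GENCODE transcripts, so the position holds for the RefSeq start alone. Arntl shows its RORE from position 30, within the first transcribed bases of the start drawn here. Another Arntl window (chr7:113207215-113207514) and another Per1 window (chr11:69099902-69100201) held no match. Per1 shows an E-box from position -166 and a D-box from -24, and Cry1 its variant from -79 and its E-box from -60. Ciart shows E-boxes from -116, -58 and -44. The Dbp window held no match to the 5 motifs.

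Dbp and Nr1d1 were higher after ovariectomy, and Arntl, which was not called, had the lowest fitted change of the set. The labels give no hour of collection, so a difference in hour between the groups and an effect of ovariectomy cannot be told apart. Of the 10 clock genes 2 were called, both higher, by edgeR's quasi-likelihood test at an adjusted p under 0.05, where 4.18% of all tested genes were called, 2.98% as higher and 1.20% as lower. At an unadjusted p under 0.05 there were 6 of 10, against 18.4% of all genes. In 6 of 10 the ovariectomy libraries lay on one side of the sham libraries, 5 higher and 1 lower, where 49.3% of all genes did so (25.5% higher, 23.9% lower). Fitted changes were above 0 for 9 of 10, with a median log2 fold change of 0.42, while over all tested genes 8340 of 17120 were above 0 and the median was -0.02.

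**Figure D1:**
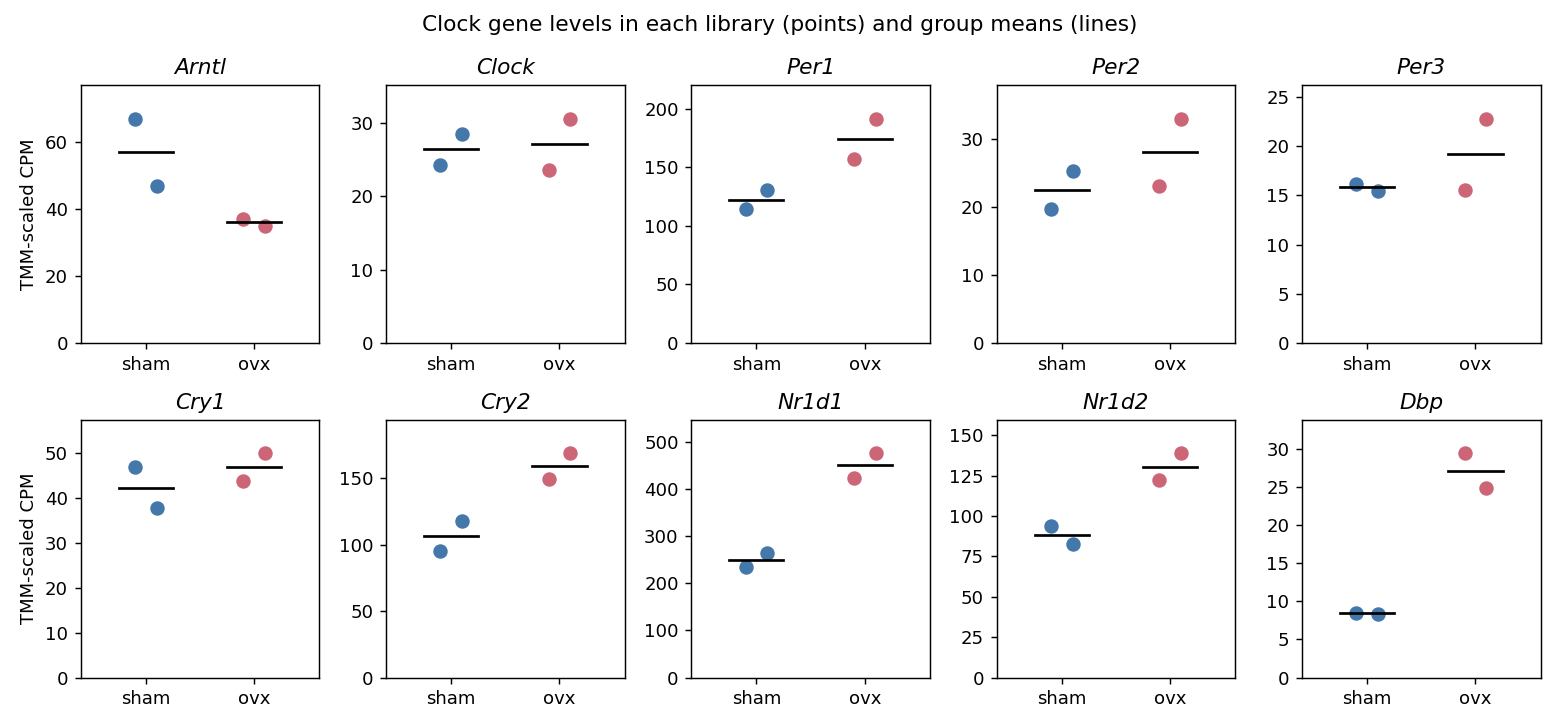
Level of each clock gene in TMM-scaled CPM (vertical axes, starting at 0 and scaled per gene) in the 2 sham and 2 ovariectomy (ovx) libraries, with points for libraries and lines for group means. For Dbp, Nr1d1, Nr1d2, Per1 and Cry2 both ovariectomy points lie above both sham points, for Arntl both lie below, and for Clock, Per2, Per3 and Cry1 the groups overlap.

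Dbp (ENSMUSG00000059824, chromosome 7, 45705088 to 45710203, plus strand, GRCm38) had 191 and 187 counts in sham 1 and 2 and 695 and 478 in ovariectomy 1 and 2. The levels were 8.52 and 8.33 CPM in the sham pair against 29.4 and 24.8 CPM after ovariectomy. The sham libraries were nearly alike and both ovariectomy libraries were far above them. The change was 3.22-fold (log2 fold change 1.69 ± 0.21 SE, 95% interval 1.19 to 2.18, edgeR adjusted p = 0.00750). Of the exon length of Dbp, 18% overlaps Sphk2, a sphingosine kinase gene on the opposite strand. The strand setting of the counting is not given in the sources used here, so reads of that stretch cannot be assigned to 1 of the genes. Sphk2 itself had 656 and 492 counts in the sham pair against 541 and 540 after ovariectomy (log2 fold change -0.01 ± 0.22 SE).

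Nr1d1 (ENSMUSG00000020889, chromosome 11, 98767932 to 98775333, minus strand) codes for the haem-binding repressor REV-ERB alpha. It was the most abundant clock gene, with 5245 and 5959 counts in the sham pair against 10029 and 9156 after ovariectomy. Its levels of 234 and 265 CPM in sham compared with 424 and 476 CPM after ovariectomy. The gap between the groups exceeded the gap within either of them, and the change was 1.80-fold (log2 fold change 0.85 ± 0.12 SE, 95% interval 0.56 to 1.14, edgeR adjusted p = 0.0122). Nr1d1 shares 8.55% of its exon length with Thra, the thyroid hormone receptor gene on the other strand, which showed a log2 fold change of -0.03 ± 0.22 SE. Dbp and Nr1d1 were called in 9 of 9 alternative analyses that kept all 4 libraries. Neither was called without ovariectomy 1 (adjusted p = 0.249 and 0.235) or without ovariectomy 2 (0.189 and 0.274), fits in which edgeR called 0 genes of the whole table and 1788 and 1618 had an unadjusted p under 0.05.

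The other repressors had fitted changes above 0, and none was called. Nr1d2 (chromosome 14, 18204054 to 18239127), which codes for REV-ERB beta, was at 94.0 and 82.5 CPM in the sham pair against 122 and 139 CPM after ovariectomy (log2 fold change 0.56 ± 0.14 SE, edgeR adjusted p = 0.0732). Cry2 (chromosome 2, 92403646 to 92434043), a cryptochrome that blocks the activator pair, was at 95 and 118 CPM in the sham pair against 149 and 169 CPM after ovariectomy (0.58 ± 0.15 SE, edgeR adjusted p = 0.0878). It shares 4.67% of its exon length with D930015M05Rik on the other strand. Per1 (chromosome 11, 69095217 to 69109960), a period gene that also responds within minutes to hormones and other stimuli, was at 114 and 130 CPM in the sham pair against 157 and 191 CPM after ovariectomy (0.51 ± 0.15 SE, edgeR adjusted p = 0.111). For each of these 3 genes the ovariectomy libraries were both above the sham libraries.

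Of the remaining repressors, Per2 (chromosome 1, 91415982 to 91459324), whose protein sets much of the pace of the loop, was at 19.7 and 25.2 CPM in the sham pair against 23.2 and 33.0 CPM after ovariectomy. Per3 (chromosome 4, 151003652 to 151044665), the period gene least needed for rhythm, was at 16.2 and 15.4 CPM in the sham pair against 15.5 and 22.8 CPM after ovariectomy. In both genes only ovariectomy 2 stood above the sham pair. Cry1 (chromosome 10, 85131700 to 85185064), the stronger cryptochrome repressor, was at 46.8 and 37.7 CPM in the sham pair against 43.8 and 49.9 CPM after ovariectomy, again with overlap. The 95% intervals of the log2 fold change ran from -0.23 to 0.87 for Per2, from -0.30 to 0.85 for Per3 and from -0.25 to 0.54 for Cry1. Each interval holds 0 and also the fitted change of Per1 (0.51).

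Neither activator was called. Arntl (ENSMUSG00000055116, chromosome 7, 113207465 to 113314126, plus strand) had 1501 and 1051 counts in the sham pair against 877 and 672 after ovariectomy. Its levels were 66.9 and 46.8 CPM in the sham pair against 37.1 and 34.9 CPM after ovariectomy. Both ovariectomy libraries lay below both sham libraries, and the sham pair was spread more widely than the ovariectomy pair. The fitted level was 1.58-fold lower (log2 fold change -0.66 ± 0.19 SE, 95% interval -1.12 to -0.20) and did not pass over all genes (edgeR adjusted p = 0.122). The log2 fold change was -0.38 without sham 1 and -0.88 without sham 2, fits that each leave 1 sham library and so hold no spread within sham. Clock (chromosome 5, 76209868 to 76304792), the partner subunit, which keeps a flat level in many tissues, was at 24.3 and 28.5 CPM in the sham pair against 23.6 and 30.6 CPM after ovariectomy. Its log2 fold change was 0.04 ± 0.20 SE with an interval from -0.44 to 0.51, and its sign turned with upper-quartile scaling (-0.0046), without sham 1 (-0.07) and without ovariectomy 2 (-0.15). The number of called clock genes was 6 in place of 2 (5 higher, 1 lower) with DESeq2, with no filter and with a filter at a mean of 5 CPM, settings that called 8.21%, 4.59% and 11.0% of all genes tested. The added genes were Nr1d2, Cry2, Per1 and Arntl, with DESeq2 adjusted p = 0.00600, 0.00565, 0.0155 and 0.0359.

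**Figure D2:**
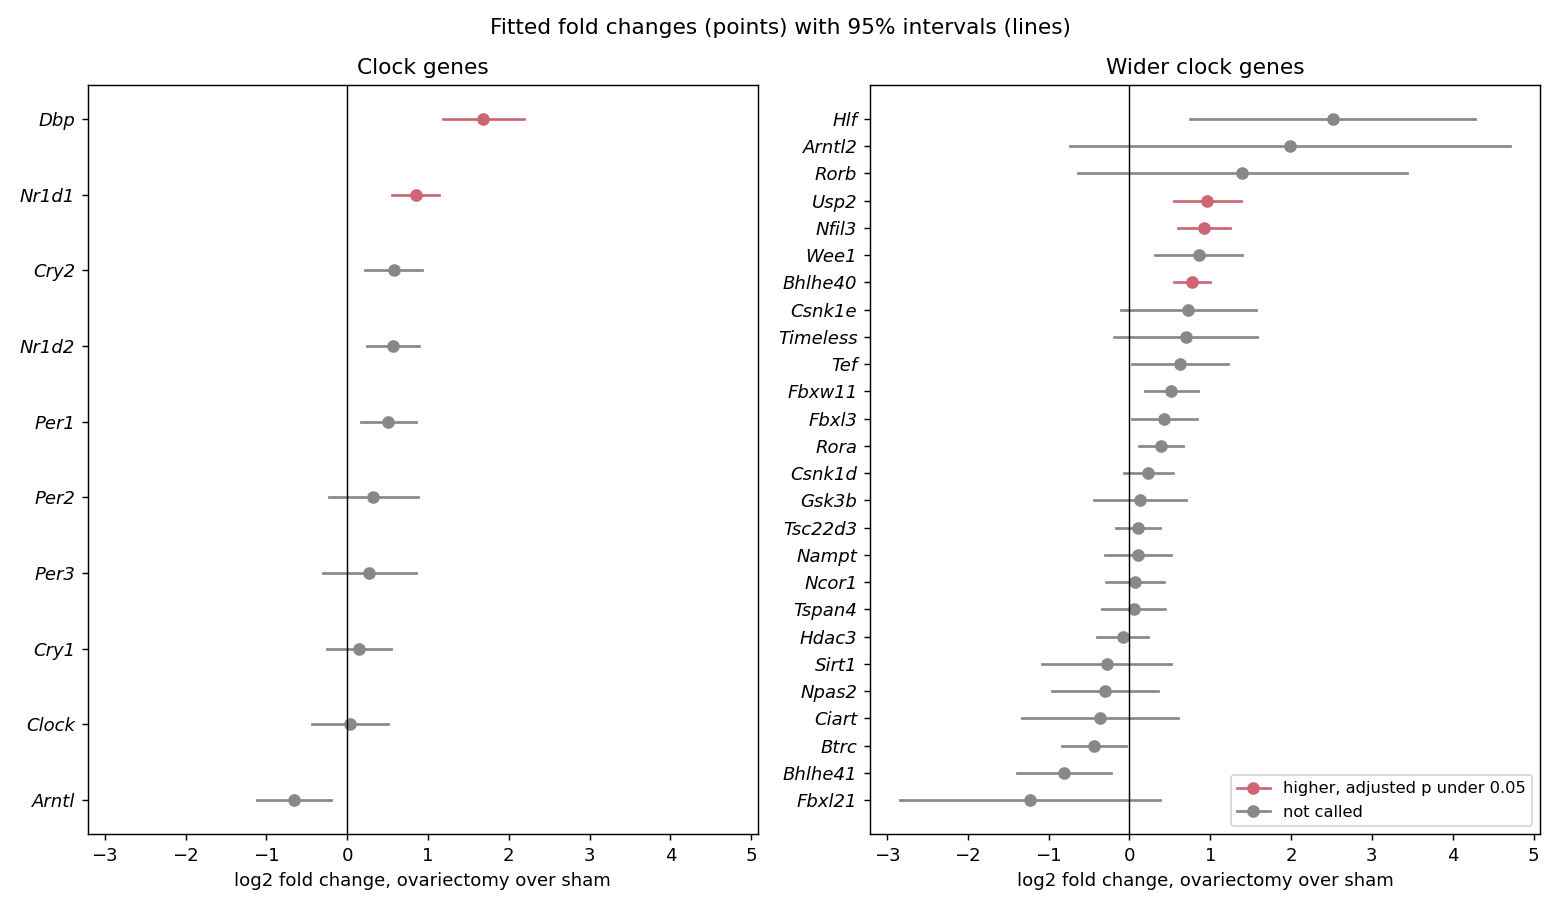
Log2 fold change of ovariectomy over sham (horizontal axes) for the 10 clock genes and 26 of the 27 wider clock genes, as fitted by edgeR (points) with 95% intervals (lines). Red marks genes called higher, Dbp and Nr1d1 on the left and Usp2, Nfil3 and Bhlhe40 on the right; no gene of either set was called lower, and the widest intervals belong to rare transcripts such as Arntl2 and Rorb.

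The negative arm was then set against the positive arm within each library. The mean log2(CPM + 0.5) of the 7 repressors was 5.97 and 6.04 in the sham pair against 6.32 and 6.61 after ovariectomy. For Arntl and Clock it was 5.35 and 5.21 in the sham pair against 4.91 and 5.05 after ovariectomy. Negative minus positive came to 0.62 and 0.83 in the sham pair against 1.41 and 1.56 after ovariectomy, a difference of group means of 0.76 against SDs of 0.15 and 0.11 (n = 2 each). The repressors' mean was 0.46 higher and the activators' mean 0.30 lower after ovariectomy. The lower activator mean rests on Arntl (log2 fold change -0.66, not called), as Clock was at 0.04. Among the repressors, Per2, Per3 and Cry1 overlapped between the groups. With the Per and Cry genes alone as the negative arm the difference was 0.66. No test was run on these averages.

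Ratios to Arntl within a library need no scaling between libraries. Nr1d1 had 3.49 and 5.67 counts for each Arntl count in the sham pair against 11.4 and 13.6 after ovariectomy. For Dbp the ratio was 0.127 and 0.178 in the sham pair against 0.792 and 0.711 after ovariectomy, and for Per1 it was 1.71 and 2.79 against 4.23 and 5.49. Cry1, whose own levels overlapped, had 0.699 and 0.805 counts per Arntl count in the sham pair against 1.18 and 1.43 after ovariectomy. Clock was at 0.362 and 0.610 against 0.636 and 0.876, with sham 2 close to ovariectomy 1. For each of the 9 genes both ovariectomy ratios lay above both sham ratios. These ratios share Arntl as the denominator and are not independent of each other. Arntl itself was lower in both ovariectomy libraries, which raises every ratio there. Clock, Per2, Per3 and Cry1, whose own levels overlapped between the groups, separated only as ratios to Arntl. The 9 genes are therefore not 9 separate results.

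**Figure D3:**
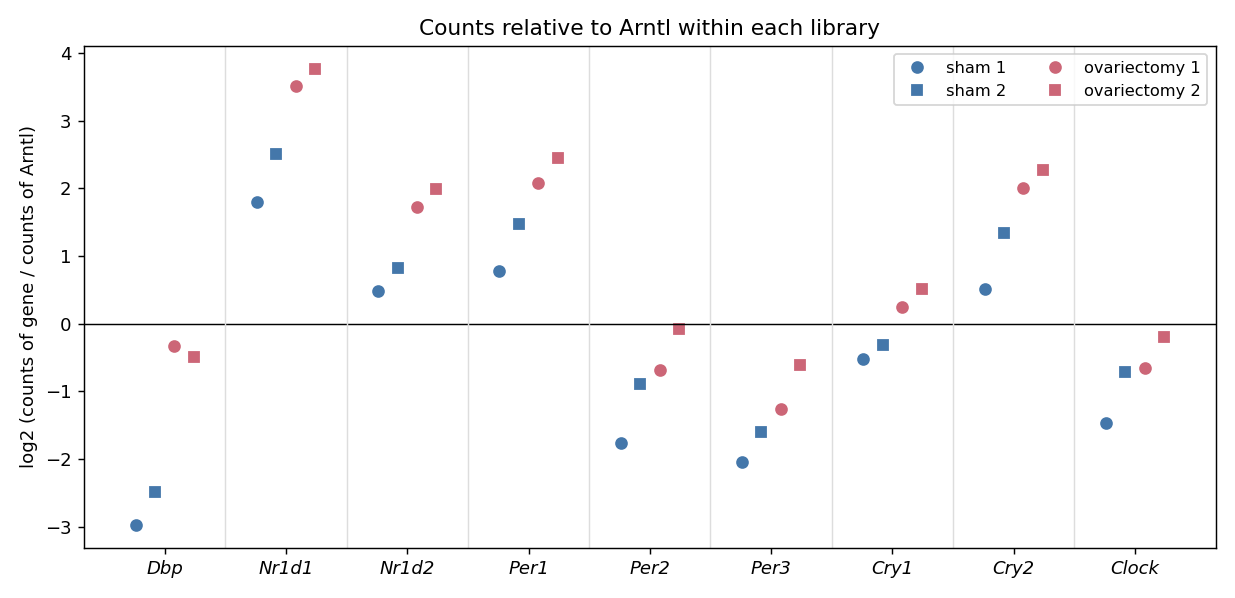
Log2 ratio of the counts of each of 9 clock genes to the counts of Arntl (vertical axis) in each library, with sham in blue, ovariectomy in red, circles for replicate 1 and squares for replicate 2. Red points lie above blue points for every gene, with the widest gap for Dbp and the narrowest for Clock, where sham 2 (0.610 as a ratio) lies just under ovariectomy 1 (0.636). Arntl, the shared denominator, was itself lower in both ovariectomy libraries, which raises all red points.

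Levels per kilobase of exon allow genes to be set against each other. In sham libraries the order of CPM per kilobase ran from Nr1d1 at 81.1 ± 7.21 (SD, n = 2) through Per1 (21.7 ± 2.01), Cry2 (16.9 ± 2.60), Nr1d2 (16.3 ± 1.5), Cry1 (12.6 ± 1.93), Arntl (7.56 ± 1.89), Per2 (3.83 ± 0.67), Dbp (2.81 ± 0.046) and Clock (1.92 ± 0.22) to Per3 (1.65 ± 0.05). Of these neighbours only Cry2 and Nr1d2 overlapped between libraries. In ovariectomy libraries Nr1d1 stood at 146 ± 11.8 CPM per kilobase, and the first 5 places held the same genes in the same order. Dbp, at 9.06 ± 1.08 CPM per kilobase, stood above Arntl, at 4.78 ± 0.20, where in sham libraries it stood below. Arntl then overlapped Per2 (4.80 ± 1.19), and Per3 overlapped Clock (1.99 ± 0.54 and 1.97 ± 0.36). The exon length counts all annotated exons of a gene, so genes with unused exons are read too low on this scale.

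**Figure D4:**
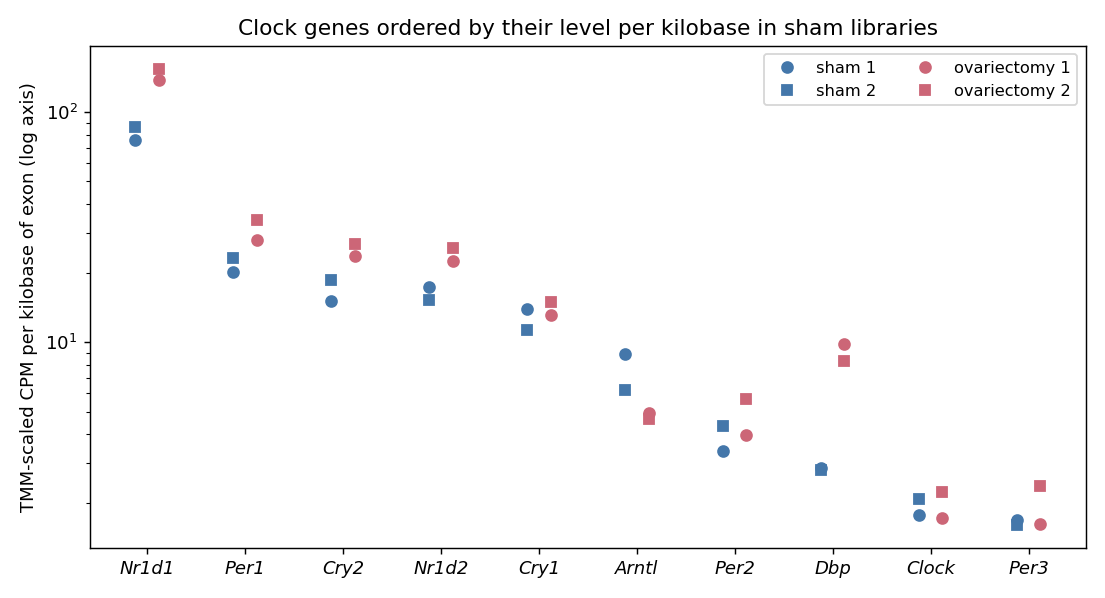
TMM-scaled CPM per kilobase of exon (vertical log axis) for the 10 clock genes, ordered by their sham mean, with sham in blue, ovariectomy in red, circles for replicate 1 and squares for replicate 2. Nr1d1 stands above all others in each library, and Dbp and Arntl change places between the groups.

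Beyond the core, 27 further clock genes were listed: partners of the activators, ROR receptors, other repressors, PAR bZIP factors, kinases, ubiquitin ligases, corepressors and widely shared output genes. All 27 were tested; 3 were called higher and 0 lower, against 2.98% and 1.20% of all genes, and 12 had an unadjusted p under 0.05, against 18.4% of all genes. Groups did not overlap in 12 that were higher and 4 that were lower, against 25.5% and 23.9% of all genes. With DESeq2 there were 8 calls, where 8.21% of all genes were called. The median log2 fold change was 0.24, against -0.02 over all genes. The 3 called genes were Bhlhe40, Nfil3 and Usp2, each called in 9 of 9 alternatives with 4 libraries, but not without ovariectomy 1 (adjusted p = 0.191, 0.295 and 0.260) or ovariectomy 2 (0.187, 0.245 and 0.413).

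Bhlhe40 (chromosome 6, 108660629 to 108666925) codes for DEC1, a repressor that competes for E-boxes and responds to many stimuli. It was far more abundant than the core genes, at 1587 and 1493 CPM in the sham pair against 2561 and 2723 CPM after ovariectomy (1.72-fold, log2 fold change 0.78 ± 0.10 SE, edgeR adjusted p = 0.00692). Per kilobase it stood at 327 in the sham pair against 561 after ovariectomy, above Nr1d1 in both groups. Nfil3 (chromosome 13, 52967209 to 52981073), the D-box repressor that opposes DBP, was at 91.3 and 108 CPM in the sham pair against 196 and 181 CPM after ovariectomy (1.89-fold, log2 fold change 0.92 ± 0.13 SE, edgeR adjusted p = 0.0125). It thus rose together with Dbp, which acts on the same motif. The Nfil3 promoter window held a RORE, as the Arntl window drawn above did, while the fitted changes of Nfil3 and Arntl had opposite signs. Usp2 (chromosome 9, 44067021 to 44095627), a deubiquitinase with a strong daily rhythm in many tissues, was at 24.3 and 22.1 CPM in the sham pair against 40.5 and 49.9 CPM after ovariectomy (1.95-fold, edgeR adjusted p = 0.0281).

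The following genes of the list were not called and were named after their values were seen. Bhlhe41, which codes for DEC2, the paralog of DEC1, was at 66.1 and 39.9 CPM in the sham pair against 32.6 and 27.7 CPM after ovariectomy (log2 fold change -0.81 ± 0.25 SE, edgeR adjusted p = 0.131). The log2 fold change was -0.40 without sham 1 and -1.12 without sham 2, and Bhlhe41 was called in 4 of 9 alternatives with 4 libraries. Bhlhe41 shares 19% of its exon length with Gm43909 on the other strand. Its interval (-1.39 to -0.23) did not meet that of Bhlhe40 (0.56 to 1.0), and the difference itself was not tested. Rora, a ROR receptor that activates Arntl, was at 127 and 123 CPM in the sham pair against 159 and 168 CPM after ovariectomy (log2 fold change 0.39 ± 0.12 SE, edgeR adjusted p = 0.125). Tef and Hlf, PAR bZIP factors related to Dbp, had fitted changes above 0. Tef was at 10.2 and 14.2 CPM in the sham pair against 16.9 and 20.7 CPM after ovariectomy. The rare Hlf had 15 and 6 counts in the sham pair against 53 and 61 counts after ovariectomy. With 6 counts in sham 2, Hlf passed the filter through the ovariectomy libraries, so a change above 0 was favoured in advance. Npas2, which can stand in for Clock, was at 11 and 17.0 CPM in the sham pair against 10.8 and 11.9 CPM after ovariectomy, with overlap.

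Genes with the E-box CACGTG in the window had fitted changes on both sides of 0. None of them was called, where 4.18% of all tested genes were, and the list is too short to read that as a result. Per1 and Bhlhe41 were each called in 4 of 9 alternatives with 4 libraries. Of the clock genes with the variant CACGTT, Nr1d1 was called and Cry1 and Cry2 were not. Of the wider list, 20 genes had a window, and Bhlhe41, Tef, Ciart, Sirt1 and Tspan4 held CACGTG. Tef showed a log2 fold change of 0.62 ± 0.25 SE, Ciart one of -0.36 ± 0.41 SE, Sirt1 -0.28 ± 0.34 SE and Tspan4 0.05 ± 0.17 SE. Ciart, with 3 E-boxes, was at 4.59 and 8.68 CPM in the sham pair against 6.09 and 4.21 CPM after ovariectomy. Tspan4 and Tsc22d3, which cycle in many organs as Dbp and Usp2 do, were at 117 to 148 and 503 to 577 CPM in the sham pair against 123 to 152 and 566 to 594 CPM after ovariectomy. Neither was called, and in both the groups overlapped.

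Clock genes also respond to signals from outside the loop, and 3 lists of such inputs were read in the same fit. Of 10 glucocorticoid-response genes 2 were called higher and 0 lower, with a median log2 fold change of 0.49, where 2.98% of all genes were called higher and 1.20% lower and the median was -0.02. These were Errfi1, a feedback inhibitor of the EGF receptor (1331 ± 119 to 2951 ± 152 CPM, SD, n = 2, edgeR adjusted p = 0.00362), and Cebpd, a bZIP factor (194 ± 11.5 to 348 ± 79.7 CPM, edgeR adjusted p = 0.0386). Fitted changes were above 0 for 8 of the 10, against 8340 of 17120 genes tested. Tsc22d3, given above as a cycling gene, was among the 8 at 0.10, with overlap. The 2 below 0 were Nr3c1 (-0.17) and Ddit4 (-0.15). Of 8 immediate-early genes 4 were called higher and 0 lower, with a median of 0.40, against the same shares of all genes. Atf3 went from 914 ± 49.5 to 1711 ± 58.9 CPM (edgeR adjusted p = 0.00501) and Fosb from 2555 ± 62.6 to 3803 ± 351 CPM (edgeR adjusted p = 0.0234). The summed level of this list was 34474 and 37187 CPM in the sham pair against 42485 and 43136 CPM after ovariectomy. Of 6 genes of CREB, a factor through which stimuli reach Per1, and its relatives and coactivators, edgeR called 0, with 0 at an unadjusted p under 0.05. Crtc2, with the smallest p, showed a log2 fold change of 0.30 ± 0.13 SE, and Crem one of 0.41 ± 0.19 SE. The part of these inputs in the clock gene values was not tested.

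The genes whose pattern over the 4 libraries was most like that of Dbp were Rgcc, Mt1 and Epb41l3, out of 10077 other genes at a mean of at least 5 CPM. Likeness was the Euclidean distance between log2(CPM + 0.5) values after each gene's own mean was taken off, and it was 0.15, 0.16 and 0.20. Rgcc, a regulator of the cell cycle, was at 506 and 441 CPM in the sham pair against 1533 and 1425 CPM after ovariectomy. Mt1, a metallothionein, was at 40.9 and 35.8 CPM against 142 and 110 CPM, and Epb41l3, a membrane skeleton protein gene, at 8.16 and 9.75 CPM against 31.0 and 27.0 CPM. The measure rests on 4 libraries in 2 groups.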

How the data were processed

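Read counts per gene of 4 libraries (2 sham, 2 ovariectomy) were used as deposited, not normalized by the authors. The tools named per the submitters' processing notes are Trim Galore 0.6.6, a read trimmer, and featureCounts 2.0.1, a counter, with the build GRCm38 (mm10). Which aligner, annotation release, strand setting and filters applied is not given in the sources used here. Libraries were mapped to groups by their labels.

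Gene symbols, positions and exon lengths came from GENCODE M21 (55227 of 55487 IDs matched), promoter windows from RefSeq. Genes were filtered by filterByExpr at default settings, scaled by TMM and tested over the whole table by quasi-likelihood in edgeR 4.0.16 (two-sided F test, R 4.3.3, group alone in the model, Benjamini-Hochberg adjustment, called at 0.05). The SE is the log2 fold change over the square root of F, and 95% intervals use the t distribution with the fit's degrees of freedom (2 residual, 5.29 prior). Levels are mean ± SD over 2 libraries. The fit was tested on simulated data. Alternatives used DESeq2 1.42.0, limma-voom (limma 3.58.1), other scalings, filters and left-out libraries. Same-numbered libraries did not deviate together (correlation 0.01 over 17120 genes), so replicate numbers were not taken as pairs in the main model.

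The members and lists were chosen with earlier results of these data known. Genes named were all 10 members, called genes of the wider list, up to 2 genes with the smallest p of each input list, and the 3 genes most like the strongest member; others were named after their values were seen. Counts per pair of replicates differed by more than sampling noise (chi-square per degree of freedom 20.0 in the sham pair against 9.39 in ovariectomy). 1 gene of the wider list is counted but not reported here.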

Additional observations from a re-analysis of the deposited data

How the results depend on the processing

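The called clock genes numbered 2 in the main analysis. They numbered 4 with library totals alone, 4 with limma-voom, 4 with the replicate block and 6 with no filter, with a mean of at least 5 CPM or with the DESeq2 test, each including Dbp and Nr1d1, and 0 to 5 without 1 library (5 without sham 2). Wider clock calls numbered 3 in the main analysis, 7 with no filter, 6 with a mean of at least 5 CPM, 8 with DESeq2, 5 with the replicate block and 0 to 7 without 1 library (5 without sham 1, 7 without sham 2). Over all genes there were 716 calls, 1656 with no filter, 1105 at a mean of at least 5 CPM, 1406 with DESeq2, 1074 with the replicate block and 0 to 1835 without 1 library (1290 without sham 1, 1835 without sham 2). The 0 came without either ovariectomy library, where the lone library is assumed to vary like the sham pair. Calls over all genes also rose with library totals alone, to 874, and with limma-voom, to 947. Higher genes made up 71.2% of calls in the main analysis, and 82.2% with library totals alone, which moved the median of all genes by 0.11 log2 units. Among the named clock genes the sign turned for Clock with upper-quartile scaling (-0.0046) and without 1 library (-0.15 to 0.23), for Per3 without ovariectomy 2 (-0.014 to 0.54 without 1 library) and for Npas2 without sham 2 (-0.58 to 0.056 without 1 library). The difference between the arms kept its direction in 10 of 10 alternatives, at 0.65 to 0.86 without 1 library. Scaling between libraries all but cancels in this difference, so the alternatives with other scalings (0.757 to 0.758) could not have changed it. The cause of these shifts was not tested.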

Other observations

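For 4 of 10 clock genes, Arntl, Per1, Cry2 and Nr1d1, the level in sham 2 lay between that of sham 1 and those of both ovariectomy libraries. The same held for 27.8% of all tested genes, and on the first principal component of the whole table (57.0% of the variance) sham 2, at -30.1, lay between sham 1, at -55.5, and the ovariectomy libraries, at 38.6 and 47.0. For Arntl the gap within the sham pair (66.9 and 46.8 CPM) was wider than the gap from sham 2 to ovariectomy 1 (37.1 CPM). Dbp (8.52 and 8.33 CPM) and Nr1d2 (94.0 and 82.5 CPM) had sham 2 on the far side of sham 1. No explanation of this pattern was tested.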
